A study of Neurospora crassa with 10 samples.

Results

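Genes at the borders of H3K9me3 domains inside the linkage groups of the filamentous fungus Neurospora crassa are described here. They were chosen by position: a listed gene had to overlap a domain or lie at most 2000 bp from one. Genes within 200 kb of the outermost listed position of their linkage group, or within 200 kb of its longest domain, were left out. This took 447 of 9729 listed genes, or 4.59%, and 5.32% of the 8406 genes that lie in the interior by the same 2 exclusions. The position relative to a domain chose these genes and is given as a description. The expression list of a gene was not used to choose it.

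H3K9me3, trimethylation of lysine 9 on histone H3, marks constitutive heterochromatin. In N. crassa it is placed by the methyltransferase DIM-5, bound by heterochromatin protein HP1, and accompanied by DNA methylation made by DIM-2. The mark lies mostly on A:T-rich remains of transposons that were mutated by RIP, a genome defence that acts before meiosis. The largest such regions are the centromeres, others lie at the telomeres, and many short ones are scattered along the chromosome arms. Genes beside the scattered ones sit where heterochromatin gives way to transcribed chromatin.

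The study used strains with a FLAG-tagged histone H3 gene at his-3 under the promoter of vvd, which blue light induces. The labels describe germinated conidia of strains lacking hpo, hda-1, dim-5 or dim-2 and of the wild type (mat a Pvvd::hH3-3xFLAG::his-3+), with 2 libraries in each of the 5 groups. Per the labels, every culture grew for 18 h in the dark at 32 °C, then received hydroxyurea (100 mM, 3 h), which blocks replication, and 2 min of 465 nm light. The labels also give 0.5% formaldehyde for every sample. Only the wild-type reference lists are used below: 346 domains, and 4 gene lists split by wild-type expression into a lowest, a 25-50%, a 50-75% and a highest list of about equal size. The sources used here do not say whether these lists come from the tagged strain or another wild type, or how it was grown.

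The lists hold positions and no expression value, strand, peak height or sample. Replicates cannot be separated and the depth behind the lists is unknown, so shares of genes are described below without tests or p-values. Intervals are Wilson 95% intervals, which cover counting error only and treat genes as independent, although neighbouring genes are alike in expression. Coordinates count from 1 and are those of the deposited files.

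Most genes at interior borders lay just outside a domain. Of the 447 genes, 320 (71.6%) had no base in a domain, and these are called outside. Another 113 (25.3%) had at least 1 base in a domain and at least 1 base out of it, and these are called edge-crossing. The remaining 14 (3.13%, interval 1.87 to 5.19) were covered completely and are called inside. Among the 201 border genes left out near ends and longest domains, 17 (8.46%, 5.35 to 13.1) were inside, 67 (33.3%) edge-crossing and 117 (58.2%) outside.

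Gene cover differed steeply over about 1 kb on either side of a border. Listed genes held 0.688% of bases at 2750 to 3000 bp inside a domain and 3.19% at 750 to 1000 bp inside. They held 17.0% of the last 250 bp within a domain and 33.4% of the first 250 bp beyond it. At 750 to 1000 bp outside the share was 59.5%, and at 1250 to 1500 bp it was 67.0%. From there to 10 kb it stayed between 62.4% and 69.6%.

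**Figure D1:**
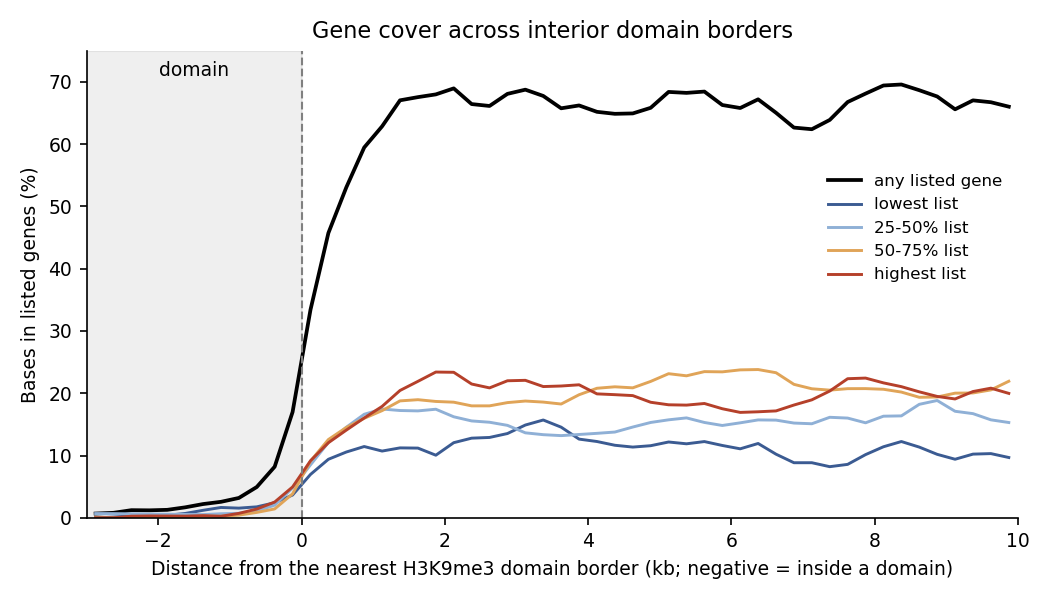
The share of bases in listed genes (y axis, %) is plotted against the distance from the nearest domain border (x axis, kb, negative inside a domain) for interior bases in bins of 250 bp, for any gene (black) and for each expression list (colours). Cover climbs from 17.0% in the last bin inside a domain to 67.0% at 1250 to 1500 bp outside.

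Most interior domains had a gene within 2 kb. The 244 interior domains had a median length of 9.6 kb and ranged from 0.3 to 112.2 kb. Of these, 220 had a gene of this set nearest to them: 51 domains had 1, 122 had 2 and 47 had 3 or more, with at most 5. Domains with such a gene had a median length of 10.65 kb, against 5.25 kb for the 24 with none. Of the 488 borders, 115 (23.6%) were crossed by a gene, and 266 (54.5%) had their first gene within 2 kb. At 73 borders (15%) the first gene lay further out, and at 34 (6.97%) another domain came before any gene. Where a border was not crossed, the median gap to the first gene was 755 bp (interquartile range 244 to 1767).

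Genes at interior borders came from all 4 expression lists in nearly equal parts. The lowest list held 116 of the 447 (26%, interval 22.1 to 30.2), the 25-50% list 104 (23.3%), the 50-75% list 106 (23.7%) and the highest list 121 (27.1%, 23.2 to 31.4). The background is 25.0% for each list over all genes. Over the 7959 interior genes further than 2 kb from a domain it is 24.0% for the lowest, 25.0% for the 25-50%, 25.7% for the 50-75% and 25.2% for the highest list. The lowest list was thus 1.92 percentage points more frequent at borders than in other interior genes, with an interval from -2.05 to 6.27 that holds 0. Without linkage group III the difference was -0.79 points. With domains of at least 3 kb only it was 4.97 points (0.35 to 10.0). With a 5000 bp limit it was 6.84 points (3.65 to 10.2). That limit adds the 378 genes over 2 to 5 kb from a domain, of which 35.4% were in the lowest list. The rise to 6.84 points comes from these added genes and not from those within 2 kb. These intervals treat neighbouring genes as independent, which makes them too narrow where lowest-list genes lie side by side. They are not tests.

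The lists differed between the classes, through the few inside genes. Of the 14 inside genes, 11 were in the lowest list (78.6%, 52.4 to 92.4), 2 in the highest, 1 in the 25-50% list and none in the 50-75% list. Edge-crossing genes were spread evenly, with 25 in the lowest list (22.1%, 15.5 to 30.6), 29 in each middle list and 30 in the highest list (26.5%). Outside genes were spread evenly as well, with 80 in the lowest list (25.0%, 20.6 to 30.0), 74, 77 and, in the highest list, 89 (27.8%). Gene length moves with this result: inside genes had a median length of 865 bp, against 2337 bp for edge-crossing and 2229 bp for outside genes. Of the 9 inside genes under 1 kb, all 9 were in the lowest list, but so were 716 of the 873 other interior genes of that length (82.0%). Inside genes of at least 1 kb were few, and the lowest list held 40% of them (11.8 to 76.9). At 1 to 2 kb the lowest list held 1 of 3, against 30.8% of other interior genes of that length. It held the 1 inside gene of 2 to 4 kb, against 10.2%, but not the 1 of 4 kb or more, against 2.19%.

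**Figure D2:**
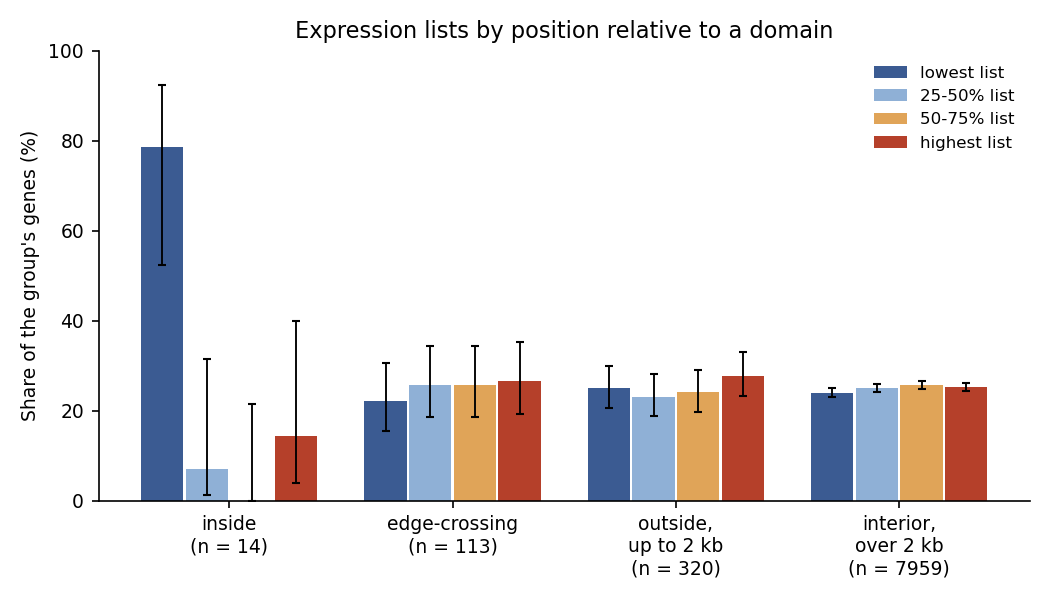
Bars give the share of each expression list (y axis, %) among inside, edge-crossing and outside genes at interior borders and among interior genes over 2 kb from a domain (x axis, with the number of genes), and lines are Wilson 95% intervals. The inside class stands at 78.6% for the lowest list, while the other bars lie between 22.1% and 27.8%, apart from the few remaining inside genes.

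The inside genes of the lowest list were short, and 5 of the 11 lay on linkage group III. On III these were NCU10629 (328150 to 328634, 485 bp), NCU05672 (431890 to 432362, 473 bp) and NCU00354 (3554902 to 3555368, 467 bp). The other 2 on III were NCU10906 (4094261 to 4095162, 902 bp) and NCU08576 (4857482 to 4857922, 441 bp). Linkage group I held NCU08083 (208395 to 209343, 949 bp), NCU09105 (5337406 to 5339465, 2060 bp) and NCU10702 (6319360 to 6320600, 1241 bp). NCU07250 lay on IV (4634102 to 4634929), NCU07228 on V (6191093 to 6191712) and NCU04689 on VI (391604 to 392299). None of them has a symbol in the table of gene names used. Without III, 6 of 9 inside genes were in the lowest list (66.7%).

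The 3 inside genes of other lists were longer or sat in long domains. NCU10069 (I, 4333774 to 4335128) of the highest list lay in a domain of 42.6 kb. NCU00995 (I, 6456247 to 6457409), also of the highest list, lay in one of 75.3 kb. NCU09969 (VI, 314113 to 320071, 25-50% list) was 5959 bp long and filled most of a 6.6 kb domain. Domains around inside genes ranged from 5.7 to 75.3 kb, with a median of 24.9 kb. Medians were 11.7 kb for edge-crossing genes and 9.45 kb for outside genes.

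Edge-crossing genes reached only a short way into a domain. The median overlap was 209 bp (interquartile range 108 to 423, range 3 to 3176) and the median covered share of a gene was 9.52%. Of the 113 genes, 72 (63.7%) overlapped by less than 300 bp, which is 1 step of the grid on which the domains were drawn. An overlap that short is at the limit of how finely the borders are placed. The 72 shallow genes held 16 of the lowest and 16 of the highest list (22.2% each). The 41 deeper ones held 9 of the lowest (22%, 12 to 36.7) and 14 of the highest list (34.1%, 21.6 to 49.5). The median covered share was 22.0% in the lowest list and 8.08% in the highest, while the overlaps themselves were alike at 219 and 260 bp. Edge-crossing genes of the lowest list were shorter, with a median of 1079 bp against 2630 bp in the highest. The same overlap covers a larger share of a shorter gene.

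NCU09968 on VI, of the highest list, had the deepest overlap (309546 to 315476). Its 3176 bp in 2 domains made up 53.5% of its length, and it contained the whole of the 1.8 kb one. NCU09968 overlaps NCU09969, the long inside gene, and was the only edge-crossing gene to span a domain. NCU08696 on II (3712644 to 3718148, 50-75% list) followed with 1657 bp in the longest interior domain, of 112.2 kb. NCU09338 on II (4158160 to 4160993, lowest list) had 1341 bp and NCU07249 on V (6081633 to 6083258, lowest list) had 1168 bp.

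NCU11279 on V (2625642 to 2626879, 25-50% list) had 1159 bp in a domain of 2.4 kb, which covered 93.6% of it. The next in order were NCU10077 on V (923 bp, of which 566 bp in a 15 kb domain and 357 bp in a 42 kb one), NCU03441 on II (879 bp) and NCU08331 on IV (862 bp). NCU09104 on I (829 bp) and NCU03997 on VI (819 bp) completed the 10 genes with the deepest overlaps. Of these 10, 2 were in the lowest, 2 in the 25-50%, 3 in the 50-75% and 3 in the highest list. An order by bases favours long genes and an order by covered share favours short ones, and the latter gives another picture. Of the 8 edge-crossing genes covered by 50% or more, 4 were in the lowest list, 2 in the 25-50%, 1 in the 50-75% and 1 in the highest. NCU03997 lies in a segment of VI that the files and the NC12 table give in opposite orientations.

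The share of the lowest list by domain length depended on where the classes were divided. At domains under 5 kb, 33 of 169 genes were in the lowest list (19.5%, 14.3 to 26.2). At domains of 5 to 15 kb the count was 39 of 122 (32.0%, 24.4 to 40.7), and at longer ones 44 of 156 (28.2%, 21.7 to 35.7). The 3 intervals overlap. The highest list took 26.6%, 25.4% and 28.8% in the same order. Without linkage group III the share of the lowest list at the long domains was 21.2%. With classes divided at 10 and 30 kb instead, the shares of the lowest list were 22.0% at short, 34.1% at middle and 18.5% at long domains, so the order of short and long was reversed.

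The spread between domain classes was widest among edge-crossing genes. At short domains 3 of 39 were in the lowest list (7.69%, 2.65 to 20.3), at middle ones 12 of 36 (33.3%, 20.2 to 49.7) and at long ones 10 of 38 (26.3%, 15 to 42.0). Outside genes showed 23.1%, 29.3% and 24.1%. The share of edge-crossing genes itself was much the same in the 3 classes, at 23.1%, 29.5% and 24.4%. The median overlap of edge-crossing genes was 181 bp at short, 225.5 bp at middle and 302 bp at long domains, and the median gap of outside genes 528.5, 609.5 and 710.5 bp.

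**Figure D3:**
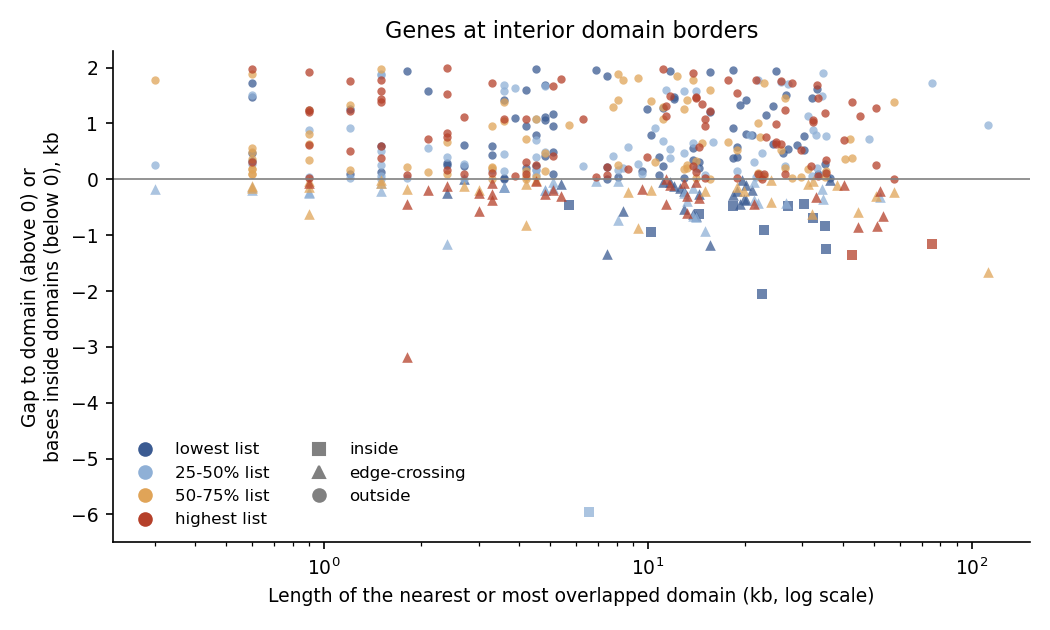
Each of the 447 genes is a point, placed by the length of its domain (x axis, kb, log scale) and by its gap to the domain (above 0) or its bases inside domains (below 0, y axis, kb), with colours for the expression list and shapes for the class. Inside genes are found only at domains of 5.7 kb or more, and most edge-crossing genes lie close to the 0 line, with NCU09968 and the inside gene NCU09969 far below it.

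Between linkage groups, the share of the lowest list among border genes ranged from 13.9% on I to 46.2% on III. On III, 24 of 52 border genes were in the lowest list (46.2%), against 23.8% of the other interior genes there. Many of these 24 lay in a single stretch, from NCU16611 (266740) to NCU05681 (474151). The 23.8% is taken over the whole interior of III, and that stretch was given no background of its own. On I the lowest list held 15 of 108 (13.9%), against 19.9%, and the highest list 38 (35.2%), against 27.9%. On V the lowest list held 12 of 75 (16%), against 22.6%. The share of the lowest list was higher at borders than in other interior genes on 4 of 7 linkage groups, and that of the highest list on 5 of 7. Border genes made up from 4.63% of interior genes on IV to 7.51% on VII.

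Many lowest-list genes at borders belonged to longer stretches of that list. Of the 116, 46 (39.7%) lay in a run of 5 or more consecutive lowest-list genes, against 433 of 1913 (22.6%) in other interior genes. On III this held for 11 of 24. Without genes of such runs, the lowest list made up 70 of 401 border genes (17.5%) and 1480 of 7526 other interior genes (19.7%). Only lowest-list genes are removed in this way, so both shares fall by construction, and more where runs are more frequent. The order of these 2 shares is therefore no separate result. The domain with most genes, on III at 430501 to 448800, had 5, all in the lowest list: NCU05670, NCU05671, NCU05672, NCU05673 and NCU05674. On VII at 889501 to 909600, all 4 (NCU06954, NCU06955, NCU09591 and NCU09590) were in that list.

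Other crowded domains had mixed lists. At I, 6297901 to 6333300, the 4 genes were NCU07345 (25-50%), NCU07344 (50-75%), NCU10702 (lowest, inside) and NCU09888 (highest, 119 bp outside). At V, 2505601 to 2507100, a domain of 1.5 kb, NCU16968, NCU03816 and NCU03817 were in the 25-50% list and NCU03818 in the highest list. At VII, 2796901 to 2811000, NCU02351 and NCU10066 were in the highest list, NCU02350 in the lowest and rpn-12, a proteasome subunit gene, in the 50-75% list. Of the 47 domains with 3 or more genes, 7 had genes of the lowest list only, 28 had 2 lists, 12 had 3 or 4, and none had the highest list only. At 22 of the 47, no gene was in the lowest list. Groups of neighbouring genes away from domains were not counted, so these numbers have no background.

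The 2 genes that flank a domain were about as alike as ordinary neighbours. Of 214 interior domains with a first gene on both sides, 66 (30.8%, 25.0 to 37.3) had both genes in 1 list. Of 8152 adjacent interior gene pairs with no domain between them, 2694 were so matched (33.0%, 32.0 to 34.1). Both were in the lowest list at 25 of the 214 domains (11.7%), against 10.3% of adjacent pairs, and both in the highest at 16 (7.48%), against 8.11%. The 66 and the 16 include 1 domain spanned by NCU09968, which was counted as the gene on both sides. The match was 31.3% across short, 32.2% across middle and 29.2% across long domains.

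The lists had other shares just beyond the 2 kb limit. Among the 320 outside genes, 80 were in the lowest (25.0%) and 89 in the highest list (27.8%). Among the 378 interior genes over 2 and under 5 kb from a domain, 134 were in the lowest list (35.4%, 30.8 to 40.4) and 63 in the highest (16.7%, 13.2 to 20.8). For outside genes the intervals are 20.6 to 30.0 and 23.2 to 33.0, so neither pair overlaps, but no test was run. Within the first kb the lowest list held 24.3% and the highest 22.8%. From 1 to 2 kb they held 26.3% and 36.4%, and at over 2 to 3 kb 38.2% and 19.8%. At 6 to 8 kb they held 25.9% and 27.1%, at 8 to 10 kb 25.3% and 22.6%, and at 10 to 20 kb 28.3% and 23.4%. At 50 kb or more they stood at 21.3% and 27.3%.

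**Figure D4:**
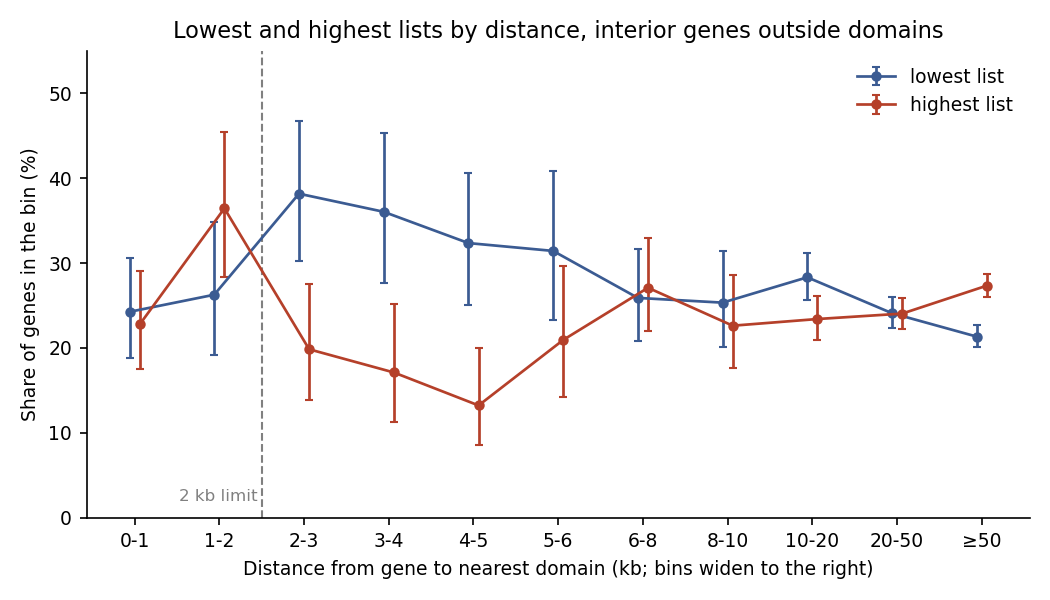
The share of the lowest (blue) and highest (red) list (y axis, %) is shown by distance from gene to nearest domain (x axis, kb, unequal bins) for interior genes outside domains, with Wilson 95% intervals. The highest list exceeds the lowest at 1 to 2 kb (36.4% against 26.3%), at 6 to 8 kb and at 50 kb or more. In the other bins the lowest list is the higher, by little at 0 to 1 kb (24.3% against 22.8%) and at 20 to 50 kb (24.1% against 24.0%).

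This difference had the same direction on every linkage group, though it was chosen after the values were seen. The share of the lowest list was smaller up to 2 kb than at over 2 to 5 kb on 7 of 7 linkage groups, for example 14.5% and 34.4% on V. The share of the highest list was larger up to 2 kb on 7 of 7, for example 36.4% and 18.8% on V. Single linkage groups hold only 30 to 82 genes up to 2 kb and 38 to 79 in the further band. With each linkage group left out in turn, the share of the lowest list at over 2 to 5 kb was 33.2% to 39.1%.

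**Figure D5:**
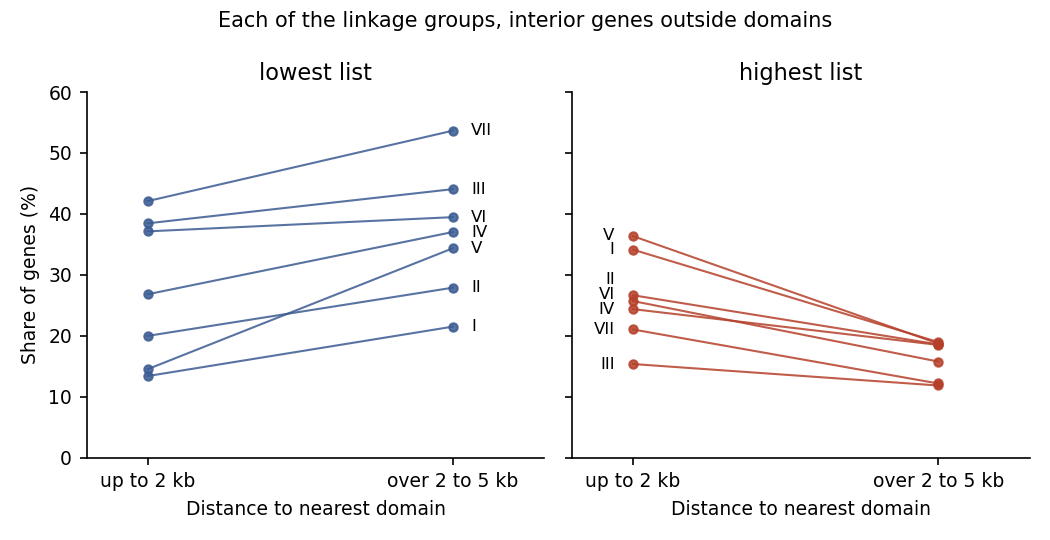
For each linkage group (a line with its number), the share of genes in the lowest list (left panel) and in the highest list (right panel) is given on the y axis (%) for interior genes up to 2 kb and over 2 to 5 kb from a domain (x axis). All 7 lines climb in the left panel and all 7 fall in the right panel.

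The same directions were seen among the first genes from a domain and in most classes of gene length. The lowest list had the smaller share up to 2 kb in 3 of 4 length classes, the exception being genes of 4 kb or more (2.22%, or 1 gene, against none). Under 1 kb its shares were nearly equal, at 89.7% and 90.4%, and its intervals overlapped in all 4 classes. The highest list had the larger share up to 2 kb in 3 of 4, the exception being genes under 1 kb (none, against 1.92%, or 1 gene). Median gene length was 2229 bp in outside genes and 2058 bp at over 2 to 5 kb. Among genes of 1 to 2 kb, the lowest list held 39.2% (30.3 to 48.9) up to 2 kb and 49.6% (41.1 to 58.1) further out. Among genes of 4 kb or more, the highest list held 27 of 45 (60%, 45.5 to 73.0) up to 2 kb and 10 of 38 (26.3%, 15 to 42.0) further out. Among first genes from a domain, the lowest list held 75 of 296 (25.3%, 20.7 to 30.6) up to 2 kb and 44 of 112 (39.3%, 30.7 to 48.5) at over 2 to 5 kb. The highest list held 26.4% (21.7 to 31.6) of these first genes up to 2 kb and 20.5% (14.1 to 28.9) further out, with overlapping intervals.

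Over all interior genes, genes of the lowest list lay closer to a domain than those of the highest. Their median distances were 36.0 kb (33.5 to 38.5) and 49.5 kb (45.8 to 52.9), a difference of -13.4 kb. With genes near ends and longest domains included, the medians were 32.7 and 43.9 kb and the difference -11.2 kb. Among the outside genes themselves the median gap was 625.5 bp in the lowest list (470 to 1052) and 958 bp in the highest (598 to 1136), with overlapping intervals, and it was 479.5 and 484 bp in the lists between.

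Borders near the ends and near the longest domains gave shares on either side of the interior ones. At interior borders 26% were in the lowest and 27.1% in the highest list. At borders within 200 kb of an end, 36 of 96 were in the lowest list (37.5%, 28.5 to 47.5) and 19 in the highest (19.8%, 13.1 to 28.9). At borders within 200 kb of the longest domain, 19 of 105 were in the lowest list (18.1%, 11.9 to 26.5) and 31 in the highest (29.5%, 21.6 to 38.8). The intervals of the lowest list at ends and at longest domains do not overlap, and that of interior borders overlaps both. Genes of these left-out regions that lie away from borders were not counted separately. These shares therefore have no background, and a difference between borders cannot be told apart from a difference between regions.

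Within classes of gene length, the intervals of the lowest list at borders and elsewhere overlapped in all 4 classes. Among genes under 1 kb, the lowest list held 46 of 51 at borders (90.2%, 79.0 to 95.7) and 82.0% of other interior genes. Among genes of 1 to 2 kb it held 37.5% (29.8 to 45.9) at borders and 30.8% (29.0 to 32.5) elsewhere, and among genes of 2 to 4 kb 9.14% and 10.2%. Among genes of 4 kb or more, the highest list held 37 of 63 at borders (58.7%, 46.4 to 70.0) and 420 of 915 elsewhere (45.9%, 42.7 to 49.1), with overlapping intervals. The median length was 2229 bp at borders (2064 to 2357) and 2160 bp in other interior genes (2125 to 2200). Of border genes, 11.4% (8.79 to 14.7) had a locus tag of NCU10000 or above, and of the others 9.10%.

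Of the 447 genes, 54 have a symbol, and most were in the upper lists, as were named genes elsewhere. The highest list held 26 of the 54 (48.1%, 35.4 to 61.1) and the lowest 4 (7.41%). Of 942 other interior genes with a symbol, the highest list held 50.4% and the lowest 5.73%. The 4 in the lowest list were all outside. They included gh6-1, gh10-2 and gh61-11, whose names place them in glycoside hydrolase families of plant cell wall breakdown, at 962, 1335 and 237 bp from a domain. The other was tnr-1, at 1933 bp. Further gh-named genes at borders were gh63-1 in the 50-75% list and gh76-2 in the highest list, at 578 bp. That made 3 of 5 gh-named border genes in the lowest list, against 19 of 58 such genes elsewhere in the interior (32.8%).

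Of 18 genes for making heterochromatin, 15 were found by symbol, and 2 of these were at interior borders, both in the 50-75% list. The gene dim-9 (II, 2791337 to 2795556), which encodes a subunit of the complex that carries DIM-5, was crossed at both ends, by 464 bp of a 900 bp domain and by 156 bp of a 600 bp one. A domain of 600 bp reached into cdp-2 by 118 bp (I, 7370870 to 7373518), which encodes a chromodomain protein of the HP1-containing deacetylase complex HCHC. The background is 5.32% of interior genes, and all 15 were interior. None of the 15 was in the lowest list, against 25.0% of all genes but only 5.73% of the 942 other interior genes with a symbol. At that background, none of 15 says little. Their median distance to a domain was 56.5 kb, against 43.9 kb over interior genes. The gene nst-3, for a deacetylase of the sirtuin family, was crossed by 205 bp (I, 25-50% list).

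Of 19 genes of light response and clock, 15 were interior and 2 of these were at borders, with the same background of 5.32%. A domain of 33 kb reached 313 bp into al-3, the carotenoid gene for geranylgeranyl pyrophosphate synthase (V, 4030155 to 4032913, highest list). One of 26.7 kb reached 423 bp into nop-1, an opsin gene (VII, 1316548 to 1318623, 25-50% list). The clock-controlled gene ccg-9, outside the list used, was crossed by 445 bp (VII, highest list). Found by symbol and interior were 9 of 10 RNA silencing genes, 4 of 7 histone genes, all 8 housekeeping genes and 1 PRC2 gene, and none of them was at a border. At a background of 5.32% lists this short say little.

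Other genes with a symbol were crossed as well. The kinase gene cot-1, needed for hyphal growth, was crossed by 238 bp (IV, 4484163 to 4487321, highest list), and cdc28, a cyclin-dependent kinase gene, by 216 bp (VI, 50-75% list). The cell wall protein gene acw-9 was crossed by 368 bp (III) and pho-3, a phosphatase gene, by 207 bp (IV), both in the highest list. The other symbols crossed were gpr-2 (151 bp, 25-50% list) and tca-17 (67 bp, highest list), and, of the 50-75% list, crf1-1 (132 bp), gh63-1 (123 bp) and cia84 (13 bp). Of the 15 crossed genes with a symbol, 10 overlapped by less than 300 bp.

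The nearest outside genes with a symbol were nuo20.1, for a subunit of mitochondrial complex I, at 17 bp (VII, highest list), and rpn-12 at 30 bp. The proteasome subunit genes rpt-4 and rpn-5 (both I, highest list) lay at 100 and 119 bp, and mdk-1 (III, highest list) at 101 bp.

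The limits of the rule cut through neighbouring values. The last genes kept were NCU01654 (1973 bp), NCU05608 (1982 bp) and NCU08283 (1988 bp), all in the highest list. The first ones beyond were NCU00052 (2008 bp), stk-56 (2017 bp) and stk-35 (2021 bp), all on III and in the lowest list. The kept gene nearest an end was NCU11220 at 208 kb, and the last one left out NCU08081 at 198 kb. At the longest domain they were NCU05681 at 209 kb and NCU04658 at 189 kb, and all 4 were in the lowest list.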

How the data were processed

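The authors deposited positions of genes in 4 lists, which per the file names split genes by normalised wild-type expression, and of wild-type H3K9me3 domains, which per the file name come from SICER and were corrected. SICER, HOMER, deepTools and Bowtie2 are named in the submitters' processing notes; the sources used here give no settings or build, nor the unit and source of the ranking. The columns used were the deposited start and end positions, not a score or signal. That the 25-50% and 50-75% lists rise in expression was taken from their names.

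Domain ends were read as included, which makes 337 of 346 lengths multiples of 300 bp; 10 empty rows were skipped. Names came from a RefSeq table for NC12: 9490 genes had the same position, 238 a mirrored position on linkage group VI (1851685 to 2769626, with 9 genes described here), and 1 no name. Coordinates are as deposited. No sequence or strand was used.

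The gap is the number of bases between gene and domain. Gene classes, shares, Wilson and order-statistic 95% intervals were computed with Python 3.11.15, numpy 2.4.6, pandas 2.3.3 and scipy 1.17.1; the classification was tested on simulated data (1200 intervals, 0 mismatches). Members and lists were chosen with earlier results of these data known, and no chance test was run. Named genes were all inside genes, the 10 deepest edge-crossing, the 5 highest-list genes with most domain bases, listed genes, the first 20 with a symbol, those at the limits, and the 5 most crowded domains. The gh genes, tnr-1 and the band at over 2 to 5 kb were chosen after their values were seen. Alternatives changed the limits, domains, gene models, gene length and linkage groups.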

Additional observations from a re-analysis of the deposited data

How the results depend on the processing

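Of 209 alternative values, 190 stayed within the 95% interval of the reported value, or within 1.5 times of a count. Many alternatives left out a single linkage group and kept most of the same genes. Staying within the interval was therefore likely beforehand, and the count of 190 is not independent evidence. With a 5000 bp limit the set grew to 825 genes by adding the 378 at over 2 to 5 kb, of which 35.4% were in the lowest list. These added genes moved the list shares. The larger set had 30.3% in the lowest list and 22.3% in the highest, with 1.70% inside and 13.7% edge-crossing. Its difference from other interior genes was 6.84 percentage points (3.65 to 10.2). With overlap only the set held 127 genes, 11% inside and 89.0% edge-crossing. A 1000 bp limit gave 34.3% edge-crossing. The inside and edge-crossing shares follow from how many outside genes the limit admits. Shortening each domain by 300 bp at both borders left 11.5% edge-crossing. With genes of at least 1 kb only, the lowest list held 17.7% of the set, 40% of inside, 14% of edge-crossing and 18.6% of outside genes, 1.26% were inside and the median length was 2370 bp, as short genes are removed. Cutting domain length at 10 and 30 kb gave 22.0% for the short, 34.1% for the middle and 18.5% for the long class, and leaving out linkage group III gave 21.2%; the cause was not tested. The difference of the lowest list between border and other interior genes was above 0 in 18 of 19 alternatives, and below it, at -0.79 points, without III. These alternatives draw on largely the same genes, so their shared sign is not independent evidence. Between linkage groups, which share no genes, the share was higher at borders on 4 of 7. Leaving out single linkage groups was added after seeing the data for the classes, domain lengths and the band at over 2 to 5 kb. The comparison of gene ends facing a domain was not run. No paired analysis was possible because the lists hold no samples. The 300 bp grid limits how finely borders are placed, and the depth behind the domains is unknown.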
